A study of Mus musculus with 6 samples.

Results

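The 9 genes described here encode interferon-inducible GTPases: the immunity-related GTPases *Iigp1*, *Igtp*, *Irgm1*, *Irgm2*, *Tgtp1* and *Tgtp2*, and the guanylate-binding proteins *Gbp2*, *Gbp3* and *Gbp7*. They were chosen by symbol among 26903 genes, and all 9 were rows of the count matrix in each of the 6 libraries. Single-cell RNA-seq (BD Rhapsody whole-transcriptome libraries) had been made from mice aged 9 months and labelled male, using renal cortex of 3 wild type (WT) mice and 3 with a global *Prdm16* knockout (KO) in which CRISPR-Cas9 had removed an early exon in every tissue, with 1 mouse per library. The comparison asks which kidney cells carry these transcripts and whether their level moves with the loss of *Prdm16*, a zinc finger transcription regulator. The 9 genes were picked with KO and WT values of these libraries already known, so their KO minus WT differences are given as a description and not as a test.

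The libraries held 96382945 to 121198131 unique molecular identifiers (UMIs, each counting 1 captured transcript), and 29142 cells were kept, 3547 to 6642 per library. Library pairs shared between 0 and 2 barcodes. Cells were grouped into classes named from marker genes, and 12 classes, none with fewer than 20 cells in a library, were compared. Levels are in CPM, the UMIs of a gene scaled to a fixed total of UMIs of all genes in that class and library. *Xist*, the transcript of the inactive X chromosome, was at 297 CPM in WT2 and 306 CPM in KO1, with no other library above 0.216 CPM, while 4 Y-linked genes summed to less than 0.06 CPM in these 2 libraries and to 110 to 133 CPM in the others. WT2 and KO1 thus stood against their male label, 1 on each side of the comparison, and the KO minus WT calls are given with and without them. *Prdm16* was at 32.4, 26.7 and 26.7 CPM in WT1, WT2 and WT3 and at 21.1, 25.0 and 23.4 CPM in KO1, KO2 and KO3 over all cells. These tags come from the 3′ end of transcripts, outside the removed exon, and so do not check the genotype.

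Interferon gamma, made mainly by T and natural killer (NK) cells, binds the receptor pair *Ifngr1* and *Ifngr2* and activates the kinases *Jak1* and *Jak2*. The signal reaches promoters at gamma-activated sequences (GAS) and, through factors such as *Irf1* and *Irf9*, at interferon-stimulated response elements (ISRE). Among the products, *Iigp1*, *Tgtp1* and *Tgtp2* load onto the vacuole of intracellular parasites, whereas *Igtp*, *Irgm1* and *Irgm2* stay on host membranes and restrain the former. Guanylate-binding proteins assemble on vacuoles and on bacteria and feed the caspase-11 inflammasome.

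Apart from *Iigp1*, which lies alone on another chromosome, the members sit in clusters, and their promoters share short sequences. In the mm10 build (GENCODE vM21), *Irgm1* lies at chr11:48861968-48871683 on the minus strand, *Tgtp1* at chr11:48985327-48994172 and *Tgtp2* at chr11:49057194-49064206, also on the minus strand. *Igtp* at chr11:58199556-58207591 and *Irgm2* at chr11:58199618-58222782 overlap on the plus strand. *Gbp7* (chr3:142530342-142550149), *Gbp3* (chr3:142560026-142573209) and *Gbp2* (chr3:142620602-142638008) are neighbours on the plus strand of chromosome 3. The 250 bases before the annotated start were read for the 8 members with an entry in the RefSeq table (GRCm38.p6); there was no entry for *Iigp1*. The stretches below are shown because they hold the interferon elements that the members have in common. They are 30 bases each, 5′ to 3′ on the strand of the gene, with letters that match an ISRE (GAAA, NN and GAAA in a row, either strand) or a GAS (TTCNNNGAA, which reads the same on both strands) in capitals.
Igtp, chr11:58199506-58199535: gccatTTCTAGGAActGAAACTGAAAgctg
Irgm2, chr11:58214897-58214926: gccatTTCCAGGAActGAAACTGAAAgctg
Tgtp1, chr11:48992310-48992339: gccatTTCCAGGAAtcGAAACTGAAAccta
Tgtp2, chr11:49064269-49064298: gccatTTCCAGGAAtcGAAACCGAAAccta
Irgm1, chr11:48871425-48871454: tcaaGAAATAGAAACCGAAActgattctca
Gbp2, chr3:142620594-142620623: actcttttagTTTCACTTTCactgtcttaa
Gbp3, chr3:142559995-142560024: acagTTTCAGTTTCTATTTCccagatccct
Gbp7, chr3:142530273-142530302: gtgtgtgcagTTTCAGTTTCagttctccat
In *Irgm1* and *Gbp3* the capitals cover 2 overlapping ISRE matches. An ISRE was found in 8 of these 8 members, against 2.98% of 32851 promoters of the same length, and a GAS in 5 of 8, against 7.02%. The 8 members had 9 promoter entries, and a member was counted if any of its entries matched. A second entry of *Gbp3* held neither element. In *Igtp*, *Irgm2*, *Tgtp1* and *Tgtp2* a GAS ended 2 bases before an ISRE, the ISRE starting 34 to 77 bases before the RefSeq start. That spacing was searched for after these stretches had been read. It occurred in 5 of the 32851 promoters (0.0152%), and the fifth was *Gm12185*, a neighbour that overlaps *Tgtp1*. A match of letters does not show that a factor binds there.

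Some of these genes cannot be told apart well by short tags. Of the 50-base words in *Tgtp1* transcripts, 81.2% also occurred in another gene, nearly all of them in *Tgtp2*, and for *Tgtp2* the share was 86.6%. How the counting divided reads between this pair is uncertain, so their values are best read together. The share was 11.8% for *Igtp* (with *Irgm2*), 12.7% for *Gbp7* (mostly with the overlapping *Gm43802*) and 7.77% or less for the others.

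Endothelial-like cells had the highest mean level for 6 of the 9 genes. Their own markers (*Pecam1*, *Cdh5*, *Kdr* and 6 others) summed to 10070 to 13010 CPM there, with none at 0. In this class *Iigp1* was at 110, 532 and 174 CPM in WT1, WT2 and WT3 and at 357, 137 and 234 CPM in KO1, KO2 and KO3. *Gbp7* was at 206, 521 and 159 CPM in the WT and at 275, 137 and 174 CPM in the KO libraries. *Gbp2* was at 145, 307 and 116 CPM in the WT and at 166, 108 and 137 CPM in the KO libraries. In all 3 genes the WT and KO values overlapped, and WT2 was the highest library. Of the 99 pairs of a gene and another class, endothelial-like cells were above the other class in all 6 libraries in 82. The classes come from clusters of the same cells, so this order was not tested.

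The remaining 3 genes peaked elsewhere. *Irgm1*, which controls autophagy and the survival of lymphocytes, had its highest mean in cells like those of the descending loop of Henle (DLH-like), at 55.3, 286 and 276 CPM in the WT and 503, 133 and 97.5 CPM in the KO libraries. Only 29 to 79 cells per library stood behind these values. DLH-like cells also led for *Tgtp1*, with a mean of 45.5 ± 47.3 CPM (SD, n = 6) against 32.8 ± 15.1 CPM in endothelial-like cells. The DLH-like class was mixed by its markers: its own summed to 1063 to 6604 CPM, those of LOH-like cells to 1604 to 8188 CPM, above its own in WT2, WT3, KO2 and KO3, and those of podocyte-like cells to 808 to 3341 CPM, above its own in WT2 and KO3. *Irgm2* peaked in podocyte-like cells, at 83.9, 226 and 36.9 CPM in the WT and 330, 82.8 and 352 CPM in the KO libraries, and was above the endothelial-like level in 5 of 6 libraries. For all 9 genes the gap between the first and second class was smaller than the larger of their SDs over libraries, so no class can be called the highest beyond that spread.

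Stromal and mesangial-like cells had the second highest mean for 4 genes, *Iigp1*, *Tgtp2*, *Gbp3* and *Gbp7*. *Iigp1* there was at 146, 601 and 92.6 CPM in the WT and 230, 70.7 and 249 CPM in the KO libraries, overlapping the range in endothelial-like cells. The class joined unlike clusters. In the cluster led by *Sfrp2*, *Iigp1* was at 208, 761 and 147 CPM in the WT and 408, 113 and 319 CPM in the KO libraries. In the cluster led by *Rgs5* and *Acta2* it was at 0 to 45.3 CPM. The latter made up 115 of 238 cells in KO1 and 43 of 198 in WT2. The distal tubule was low. In cells like those of the thick ascending limb of the loop of Henle (LOH-like), *Iigp1* was at 2.21, 7.62 and 1.18 CPM in the WT libraries, at 1.53 and 0.328 CPM in KO1 and KO2, and had no UMI in KO3, where 3 UMIs would have been 0.357 CPM. Lowest means were 1.82 ± 2.13 CPM for *Gbp2* and 1.23 ± 1.21 CPM for *Gbp3* in distal convoluted tubule (DCT)-like cells, and 0.473 ± 0.372 CPM for *Tgtp2* in LOH-like cells. T and NK-like and macrophage-like cells lay between these: the sum of the 9 genes was 345 to 530 CPM in the WT and 231 to 388 CPM in the KO libraries for T and NK-like cells, and 264 to 520 CPM over all 6 libraries for macrophage-like cells.

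The sum of the 9 genes shows how far the classes lay apart. It was 839, 2593 and 924 CPM in the WT and 1619, 732 and 1032 CPM in the KO libraries in endothelial-like cells, against 63.4 to 181 CPM in LOH-like and 42.1 to 167 CPM in DCT-like cells. In RNA outside cells, read from barcodes with under 100 UMIs, the sum was 79.0, 223 and 95 CPM in the WT and 353, 93.3 and 127 CPM in the KO libraries, again highest in WT2 and KO1. The sum was below the free RNA of the same library in 5 of 6 libraries for LOH-like, 6 of 6 for DCT-like and 5 of 6 for connecting tubule (CNT)-like cells, and above it in all 6 for endothelial-like, podocyte-like, and principal cell (PC)-like cells.

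**Figure D1:**
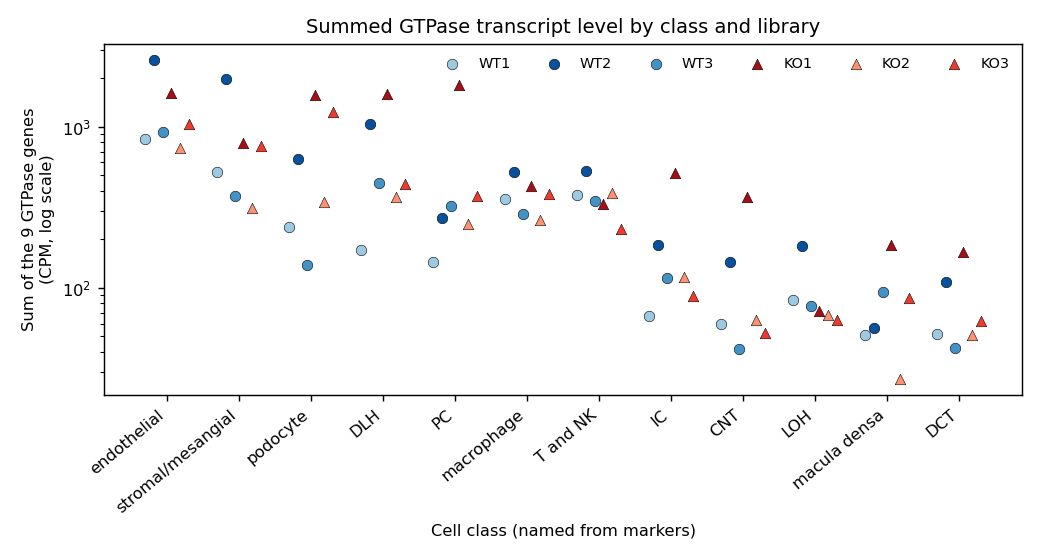
Summed level of the 9 GTPase genes in CPM (log axis) for 12 cell classes, with 1 point per library, WT as blue circles and KO as red triangles. Endothelial-like cells sit at 732 to 2593 CPM and LOH-like cells at 63.4 to 181 CPM, and WT2 (dark blue) or KO1 (dark red) is the highest point in all 12 classes.

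Shares of cells gave the same picture at equal depth. Each cell was thinned to 500 UMIs, and cells with at least 1 UMI of any of the 9 genes were counted. The share in endothelial-like cells was 30.6%, 63.1% and 30.4% in WT1, WT2 and WT3 and 44.0%, 26.1% and 33.5% in KO1, KO2 and KO3. Their depth was the lowest of the 4 classes set side by side here, with medians of 1167 to 1556.5 UMIs, and without thinning their mean share was 62.4% rather than 38.0%. In PC-like cells, which line the collecting duct, the share was 4.53%, 11.1% and 6.82% in the WT and 35.8%, 10.5% and 15.6% in the KO libraries, at medians of 4191 to 6763 UMIs. In podocyte-like cells it was 9.31%, 22.7% and 5.31% in the WT and 42.0%, 13.6% and 38.0% in the KO libraries. LOH-like cells, whose sum was below the free RNA in 5 of 6 libraries, had shares of 2.68% to 8.82% at medians of 2425 to 12809 UMIs. PC-like KO1 (95% exact binomial interval 28.7% to 43.5%) thus lay above that range, and the interval covers counting error only.

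**Figure D2:**
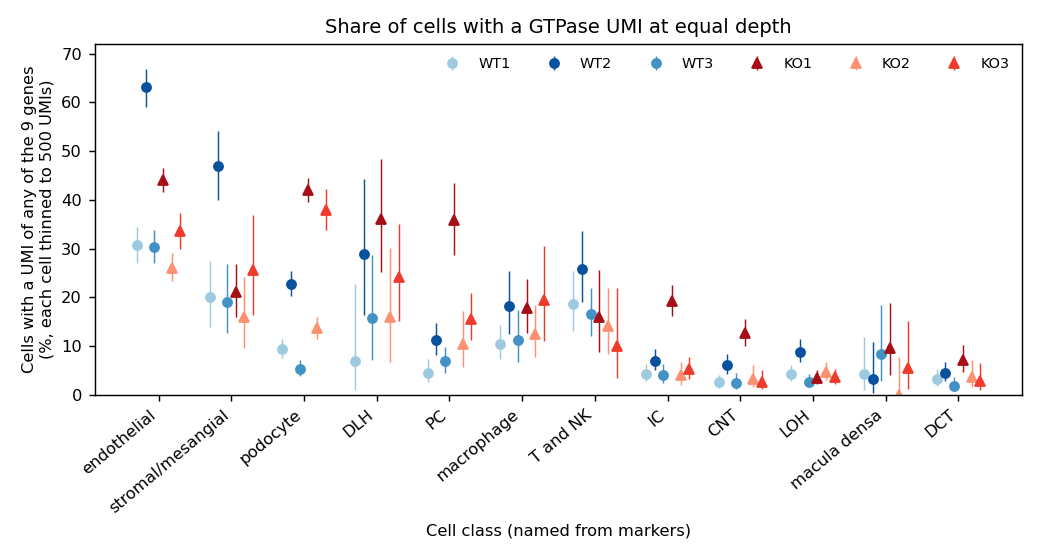
Share of cells (%) with at least 1 UMI of any of the 9 genes after thinning to 500 UMIs, by class and library, with 95% exact binomial intervals as vertical lines. Endothelial-like cells reach 63.1% in WT2, podocyte-like cells 42.0% in KO1 and 38.0% in KO3, and PC-like cells 35.8% in KO1, whereas LOH-like cells stay at or below 8.82% in all 6 libraries.

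In PC-like cells 3 members, *Iigp1*, *Irgm2* and *Tgtp1*, were higher in the KO libraries. *Iigp1* was at 17.3, 22.5 and 25.1 CPM in the WT and at 943, 42.9 and 80.0 CPM in the KO libraries. All KO values were above all WT values, and KO1 was more than 10 times the next library. The fitted KO minus WT difference was 4.02 on the log2 scale (SE 0.87, n = 3 and 3), 1.59 without KO1 and 1.6 in the 4 libraries without *Xist*. It did not pass the threshold when WT1, WT2 or WT3 was left out, at 3.86, 4.03 and 4.18. Over all settings of the processing, it passed in 14 of 20. The WT signal was also carried by few cells: 33 of 43 UMIs in WT1 and 56 of 66 UMIs in WT3 came from 1 cell each, and 1.84% of the 381 WT3 cells had an *Iigp1* UMI, against 53.8% of 173 cells in KO1, 14.5% of 124 in KO2 and 16.0% of 237 in KO3, none thinned. With the highest cell of each library left out, the levels were 4.03, 19 and 3.8 CPM in the WT and 889, 23.1 and 70.8 CPM in the KO libraries, and the difference was 5.14.

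Other members shared the KO1 peak in PC-like cells. *Irgm2* was at 17.7, 12.8 and 12.5 CPM in the WT and 128, 25.3 and 29.9 CPM in the KO libraries, a difference of 2.12 (SE 0.48) with no overlap. Without KO1 it was 1.01, and 0.92 in the libraries without *Xist*, and no longer past the threshold, as was so without WT1 (2.26), WT2 (2.03) or WT3 (2.08). *Tgtp1* was at 1.61, 2.76 and 3.42 CPM in the WT and 79.5, 7.70 and 6.11 CPM in the KO libraries, a difference of 3.56 (SE 0.85), or 1.39 without KO1 and 1.41 in the libraries without *Xist*, neither past the threshold. Again no KO library fell to the WT values, but KO2 and KO3 were close to them, and the call was lost without WT1 (3.30), WT2 (3.58) or WT3 (3.83). *Igtp* reached 247 CPM in KO1 against 36.3 and 55.6 CPM in KO2 and KO3 and 23.0 to 38.0 CPM in the WT libraries, which overlap. *Gbp2* had no such peak, at 10.5, 50.1 and 87.0 CPM in the WT and 54.8, 12.1 and 12.8 CPM in the KO libraries; 109 of its 145 UMIs in WT2 and 190 of 229 in WT3 lay in 1 cell each.

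None of the 3 calls was past the threshold with classes from marker scores (3.29 for *Iigp1*, 1.5 for *Irgm2* and 3.20 for *Tgtp1*) or with no mitochondrial limit (3.50, 1.51 and 3.15), and DESeq2 called *Iigp1* but neither *Irgm2* (2.09) nor *Tgtp1* (3.54). The markers of the PC-like class summed to 12190 to 21740 CPM. Endothelial markers were at 48.0 CPM in KO1 and 14.1 to 24.4 CPM in the other 5 libraries (9 of 9 detected), and neutrophil markers at 9.76 CPM in KO1 and 0.806 to 7.70 CPM elsewhere (5 of 5). Monocyte markers summed to 0.403, 8.64 and 3.04 CPM in the WT and 84.8, 24.2 and 40.3 CPM in the KO libraries, all KO libraries above the WT libraries and KO1 the highest, as for *Iigp1*. Nearly all of this was *Plac8*, at 84.8, 23.1 and 39.7 CPM in KO1, KO2 and KO3, while *Ccr2* had no UMI in the 6 libraries and *Ly6c2*, *Chil3* and *Fn1* were at 1.10 CPM or less. The part of other cell types in the PC-like values was not tested. The sum of the 9 genes in PC-like KO1 cells, 1824 CPM, was above the 1619 CPM of endothelial-like cells in the same library.

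In podocyte-like cells, the filtration cells of the glomerulus, 8 of 8 members that passed the filter on low counts had a positive KO minus WT difference, with a median of 1.49 (log2) against 0.0035 over all genes tested. *Tgtp1* was at 2.62 and 4.04 CPM in WT1 and WT2, had no UMI in WT3 (3 UMIs would have been 0.769 CPM), and was at 104, 11.6 and 65.3 CPM in the KO libraries. *Tgtp2* was at 6.99, 6.56 and 1.54 CPM in the WT and 150, 12.6 and 99.5 CPM in the KO libraries. In both genes the KO libraries were all above the WT libraries, and KO1 and KO3 were far above KO2. The differences were 4.59 (SE 0.78) for *Tgtp1* and 4.03 (SE 0.74) for *Tgtp2*, or 4.66 and 3.58 in the libraries without *Xist*, where neither passed the threshold. Leaving out any 1 WT library ended both calls, at 4.64, 5.37 and 4.13 for *Tgtp1* and 4.28, 4.27 and 3.68 for *Tgtp2* without WT1, WT2 and WT3. The *Tgtp2* call was also lost without KO1 (3.35) and without KO3 (3.92).

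None of the guanylate-binding proteins passed the threshold in these cells, where *Gbp2* fell just short of it. With a term for the libraries with *Xist* in the fit, *Gbp2* and *Gbp7* passed it. *Gbp2*, which is recruited to damaged vacuoles, was at 36.9, 79.9 and 29.0 CPM in the WT and 214, 83.0 and 186 CPM in the KO libraries, without overlap. Its difference was 1.69 (SE 0.37), and in the libraries without *Xist* the KO mean was 4.09 times the WT mean. *Gbp3* and *Gbp7* overlapped between the groups. *Iigp1* showed the widest spread between KO mice, at 87.2 CPM in KO1, 0.514 CPM in KO2 and 18.4 CPM in KO3, against 0.219 to 0.841 CPM in the WT libraries, and did not pass the filter on low counts. *Irgm2* overlapped between groups because WT2 was at 226 CPM and KO2 at 82.8 CPM. Endothelial markers were at 52.5 CPM in KO1 and 21.4 to 29.8 CPM in the other libraries (9 of 9 detected), while neutrophil markers were at 24.3, 5.40 and 6.41 CPM in the KO and 0.512 to 1.68 CPM in the WT libraries (5 of 5). The part of neutrophil RNA in the KO values was not tested. In neutrophil-like cells themselves, which numbered 246, 71 and 56 in KO1, KO2 and KO3 and 31 and 20 in WT2 and WT3, the sum of the 9 genes was 1297, 271 and 155 CPM in the KO and 891 and 592 CPM in these WT libraries.

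LOH-like cells differed in direction. All 6 members that passed the filter had negative KO minus WT differences, with a median of -0.79 against -0.0049 over all genes. *Gbp2* was at 9.03, 10.2 and 7.34 CPM in the WT and 3.06, 3.28 and 4.04 CPM in the KO libraries, which do not overlap, a difference of -1.32 (SE 0.22) and of -1.11 without the libraries with *Xist*. These are few molecules: 33 of the 49 UMIs in WT1, 11 of 63 in WT2 and 28 of 56 in WT3 came from 1 cell each. Without each library's highest cell the levels were 2.95, 8.43 and 3.67 CPM in the WT and 1.53, 2.46 and 2.97 CPM in the KO libraries, which overlap, and the difference of -1.06 did not pass the threshold. *Gbp3* was at 3.50, 13.3 and 4.06 CPM in the WT and 2.10, 2.79 and 2.5 CPM in the KO libraries, and *Gbp7* at 13.6, 19.4 and 13.0 CPM against 10.1, 12 and 12.4 CPM. In both the KO libraries were all below the WT libraries, but the differences of -1.47 and -0.41 did not pass the threshold. In the libraries without *Xist* the KO mean was 0.698 of the WT mean for *Gbp3* and 0.914 for *Gbp7*. The *Gbp2* call was also lost, with the value moved to -0.33, -0.17 and -0.27, when classes came from marker scores, when no mitochondrial limit was set and when the top 6% of doublet scores were removed in every library. Over all settings of the processing, *Gbp2* passed in 14 of 19.

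**Figure D3:**
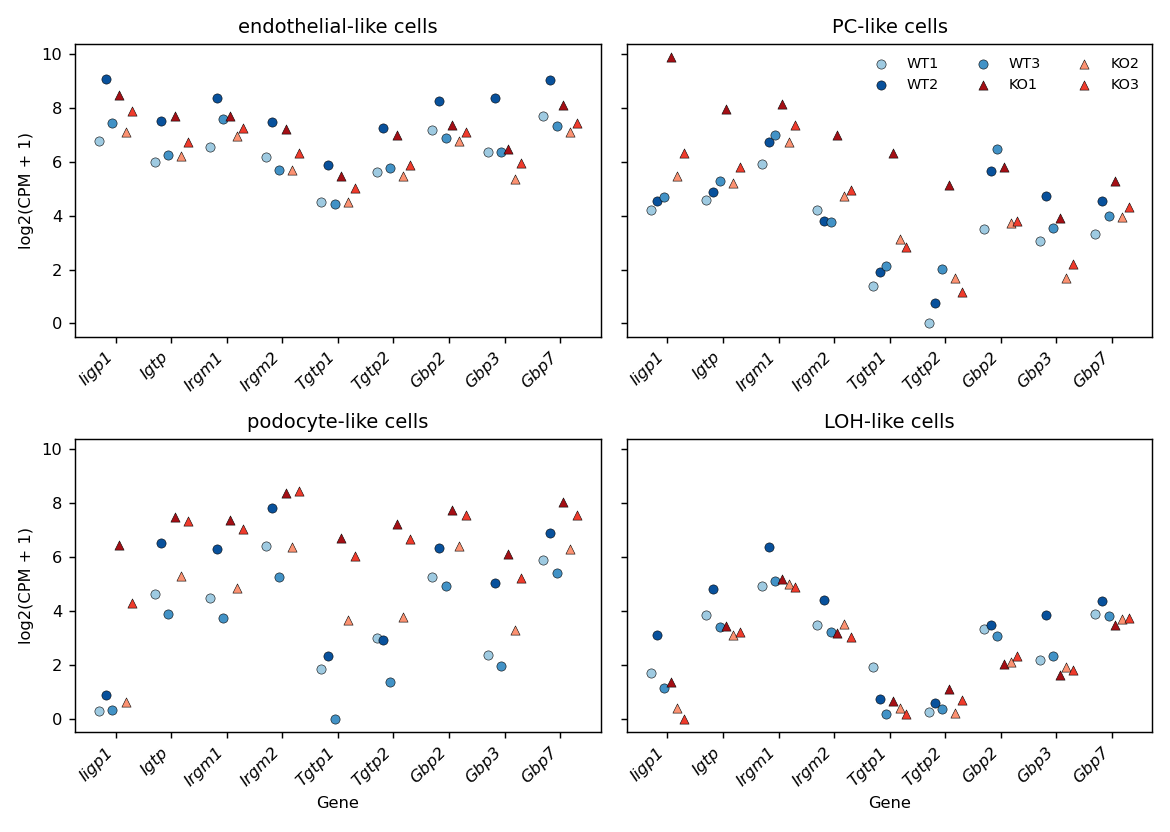
Level of each GTPase gene as log2(CPM + 1) in 4 cell classes, with 1 point per library, WT as blue circles and KO as red triangles. KO1 (dark red) stands apart in PC-like cells, KO1 and KO3 lie above the WT libraries in podocyte-like cells, WT2 (dark blue) is highest for 8 of 9 genes in endothelial-like cells, and in LOH-like cells *Gbp2*, *Gbp3* and *Gbp7* lie lower in the 3 KO libraries.

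Counted over classes, 3 of 8 members tested in PC-like cells were past the 0.05 threshold upwards (2.54% of all genes were past it in either direction in that class), 2 of 8 in podocyte-like cells upwards (1.77%) and 1 of 6 in LOH-like cells downwards (4.12%). These calls used edgeR's quasi-likelihood test with Benjamini-Hochberg adjustment over all genes of the class, and since the contrast chose the members, the counts are not evidence about them. No member was past it in the other 9 classes with edgeR or DESeq2, and in edgeR 0 to 2 members of each had an unadjusted p under 0.05. The share of all genes past it there was 2.75% in CNT-like, 0.989% in DCT-like, 0.62% in IC-like, 0.0259% in T and NK-like, 0.205% in endothelial-like, 0.21% in macrophage-like, 0.955% in macula densa-like, 0.0669% in stromal and mesangial-like and 0.0% in DLH-like cells. In all, 79 of the 108 pairs of a gene and a class passed the filter, and 49 of the 79 differences were positive. KO libraries lay all above the WT libraries in 6 of the 79 pairs, against 7.39% of all gene and class pairs, and all below in 4, against 8.97%. Medians ran from 1.49 in podocyte-like and 1.43 in PC-like cells over 0.97 in CNT-like and 1.16 in intercalated cell (IC)-like cells to -0.15 in endothelial-like, -0.48 in stromal and mesangial-like and -0.79 in LOH-like cells. Over all cells the median was 0.92 and no member passed the threshold in edgeR or DESeq2 (1.05% of all genes did in edgeR), with an unadjusted p under 0.05 for 2. With a term for the libraries with *Xist* in the fit, 8 pairs were past the threshold upwards and 4 downwards. Over all cells that fit put 1 member past it, *Tgtp1* at 2.32. The added ones upwards in single classes were *Iigp1* in CNT-like cells (3.44) and *Gbp2* (1.77) and *Gbp7* (1.28) in podocyte-like cells, and those added downwards were *Igtp* in LOH-like (-0.86), *Gbp3* in endothelial-like (-1.20) and *Gbp3* in stromal and mesangial-like cells (-1.81).

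A second source of variation ran across genotypes. In the mean, WT2 and KO1, the libraries with *Xist*, were higher than the other 4 in most classes. Both lay above the other 4 for all 9 members in endothelial-like and DLH-like cells, but for 0 of 9 in podocyte-like and in T and NK-like cells. The contrast came from the same edgeR fit, with genotype as the other term. It was chosen after seeing the data, and KO1, which carries much of the KO values that chose the genes, is 1 of its 2 libraries, so its values for the members are a description too and are given without p. Of 79 tests, 77 differences were positive and 17 were past the threshold, all upwards. The share of all genes past it, in either direction, was 0.469% in CNT-like, 0.409% in endothelial-like, 0.343% in IC-like, 0.151% in DCT-like and 0.184% in stromal and mesangial-like cells, the 5 classes with calls. Where no member passed in edgeR, the share was 0.0192% in DLH-like (7 of 7 members with an unadjusted p under 0.05), 0.0259% in T and NK-like (0 of 4), 0.0175% in macrophage-like (2 of 8) and 0.0783% in macula densa-like cells (0 of 2), and 0.0263% over all cells (9 of 9). Values did not overlap, both *Xist* libraries being above the other 4, in 41 of the 79 pairs, against 8.27% of all gene and class pairs, and they were below in 0 of 79, against 4.09%. Whether sex or another factor shared by these mice goes with the difference cannot be told apart.

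In CNT-like cells, the segment after the distal convoluted tubule, 5 of 7 members tested were higher in the *Xist* libraries. The summed level in this class was below that of free RNA in every library but KO1. Free RNA itself was highest in WT2 and KO1, with sums of 223 and 353 CPM. The part of free RNA in the CNT-like values was not tested. *Iigp1* was at 8.65 CPM in WT2 and 124 CPM in KO1, against 1.48 and 0.332 CPM in WT1 and WT3 and 3.15 and 1.10 CPM in KO2 and KO3. The difference was 5.05 (SE 0.37). Both *Xist* libraries were above the rest, but KO1 was 14.4 times WT2. *Igtp* was at 25.7 CPM in WT2 and 53.7 CPM in KO1 and at 3.65 to 9.92 CPM in the others, a difference of 2.47 (SE 0.24). *Irgm1* differed by 1.40 and *Irgm2* by 1.86, and the call for *Irgm2* was lost without KO1 (1.24). *Gbp7* differed by 1.21 and lost its call when WT1 (1.26), WT2 (1.65), KO1 (0.85), KO2 (1.15) or KO3 (1.09) was left out. The calls for *Igtp* and *Irgm1* remained without any 1 library. That for *Iigp1* remained without WT1, WT3, KO2 or KO3 (4.44 to 5.67), but without WT2, without KO1 or without each library's highest cell the gene had too few counts to be tested.

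In endothelial-like cells 6 of 9 members were higher in WT2 and KO1, and for all 9 the 2 libraries were above the other 4. *Tgtp2* was at 151 and 127 CPM in WT2 and KO1 and at 43.3 to 57.9 CPM in the others, a difference of 1.42 (SE 0.18). *Igtp* was at 182 and 206 CPM against 62.4 to 105 CPM, a difference of 1.28, and *Irgm2* at 179 and 147 CPM against 50.8 to 78.5 CPM, a difference of 1.34. In these 3 genes WT2 and KO1 were close to each other. *Gbp3* was different: WT2 was at 331 CPM, KO1 at 88.3 CPM and the others at 39.6 to 82.3 CPM, so that KO1 was near WT1 and WT3. None of the 6 calls remained without WT2, where the differences were 0.75 for *Gbp3*, 0.76 for *Gbp7*, 0.87 for *Iigp1*, 1.13 for *Irgm2*, 1.16 for *Igtp* and 1.27 for *Tgtp2*. Without WT3 the calls for *Gbp3* (1.33), *Gbp7* (1.02), *Igtp* (1.32), *Iigp1* (1.47) and *Irgm2* (1.22) were lost, without WT1 those for *Gbp3* (1.32), *Gbp7* (1.15) and *Iigp1* (1.17), and without KO2 that for *Iigp1* (1.31). With WT2 or KO1 left out, the remaining *Xist* library is assumed to vary like the rest.

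In IC-like cells, the acid-base cells of the collecting duct, *Iigp1* was at 35.1 and 107 CPM in WT2 and KO1 and at 4.64 to 7.39 CPM in the others. The difference was 3.34 (SE 0.28) and stayed past the threshold without any 1 library, although 85 of the 168 UMIs in WT2 lay in 1 cell, without which WT2 was at 17.3 CPM. The summed level in this class was below that of free RNA in WT1, WT2 and KO3, at 185 against 223 CPM in WT2. It was above it in WT3, KO1 and KO2. *Iigp1* in free RNA was at 31.7 CPM in WT2 and 76.4 CPM in KO1, and the part of free RNA was not tested. The clusters of this class were not alike. In that led by *Slc4a1*, *Iigp1* was at 6.55 CPM in WT2, 194 CPM in KO1 and 8.74 CPM in KO2. In WT2 and KO1 it was at 52.2 and 64.0 CPM in the cluster led by *Slc26a4*, and at 11.1 and 40.0 CPM in that led by *Spink8*. Over the class, monocyte markers were highest in KO1, as *Iigp1* was, at 53.2 CPM. WT2, at 18.4 CPM, lay within the 6.72 to 23.1 CPM of the others, unlike for *Iigp1*. Nearly all of these marker counts came from *Plac8*, and their part was not tested. *Igtp* (1.73) and *Irgm2* (1.71) were also higher. Both calls were lost without KO1 (0.78 and 1.03), KO2 (1.53 and 1.63) or KO3 (1.56 and 1.51). In the *Slc4a1* cluster *Igtp* was at 13.1 CPM in WT2, below the 24.8 and 24.2 CPM of KO2 and KO3. In DCT-like cells *Irgm1* (1.18) and *Irgm2* (1.62) were higher, and the call for *Irgm1* was lost without WT1 (1.05) or WT2 (0.74). The summed level in DCT-like cells was below that of free RNA in every library, and the part of free RNA was not tested. In stromal and mesangial-like cells only *Gbp3* passed, at 273 CPM in WT2, 51.4 CPM in KO1 and 19.3 to 49.5 CPM in the others. Its difference of 2.19 (SE 0.31) was 1.22 without WT2 and 1.94 without WT1, both short of the threshold.

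PC-like and podocyte-like cells, which held 5 of the 6 KO minus WT calls, had no call in this contrast (0.248% and 0.0387% of all genes), although 8 of 8 differences were positive in each, and 6 and 7 of them had an unadjusted p under 0.05 in edgeR. DESeq2 was not run for this contrast. The ratio between the *Xist* libraries themselves (KO1 to WT2) can be set beside the ratio of KO to WT means in the other 4. For *Iigp1* in PC-like cells these ratios were 42.0 and 2.90, and for *Tgtp1* in podocyte-like cells they were 25.7 and 29.3. For *Gbp2* in LOH-like cells the ratios were 0.3 and 0.447. The *Iigp1* ratio was thus larger between KO1 and WT2. The *Tgtp1* ratios were close in both sets of libraries, but little rests on this. The WT levels were near the floor, with no UMI in WT3, KO2 and KO3 lay far apart, and the ratio of KO1 to WT2 compares single libraries.

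The KO minus WT difference was also set against itself between endothelial-like and LOH-like cells, by an interaction term in edgeR. It was past the threshold for 2 of 9 members, *Iigp1* and *Igtp*, against 0.842% of all genes, and their values are given in the closing section.

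**Figure D4:**
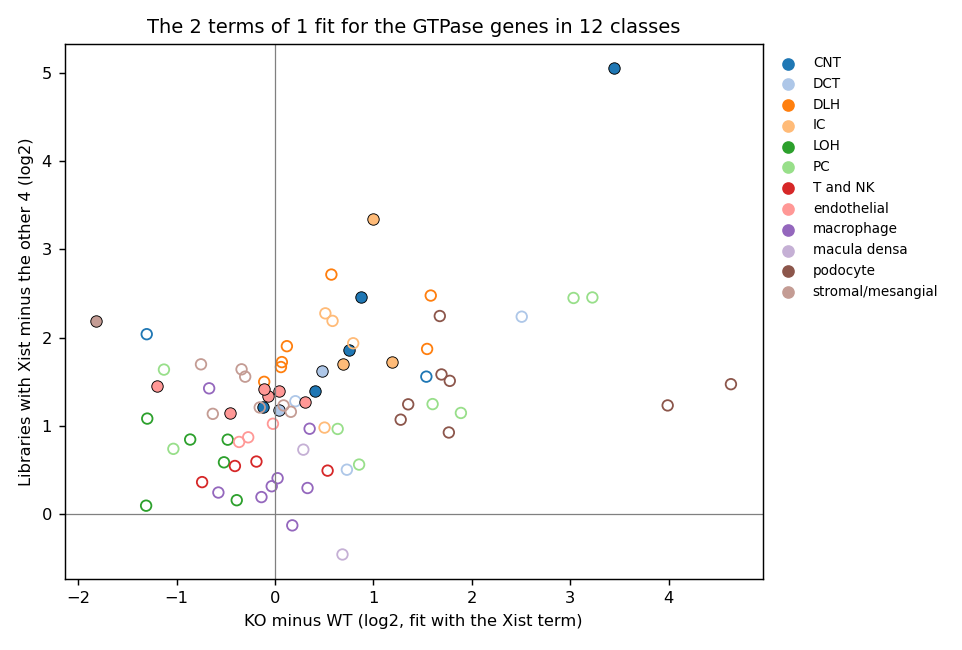
For each gene and class that passed the filter (79 points, coloured by class), the KO minus WT difference (x axis, log2) and the difference of the libraries with *Xist* from the other 4 (y axis, log2), both from 1 edgeR fit. Filled points are the 17 past the 0.05 threshold on the y axis, and 77 of the 79 points lie above 0 on it, while on the x axis 48 lie above 0.

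The genes of the pathway were counted in lists chosen with these results known. Over the 12 classes, 0.764% of all gene and class pairs were past the threshold upwards and 0.688% downwards in the KO minus WT contrast. There, 2 of 35 tests of other GTPases of the same families were past the threshold, both upwards, and 0 of 9 tests of interferons and inducing cytokines in edgeR, 2 of them with an unadjusted p under 0.05 (DESeq2 was not counted for this list). Receptors and kinases gave 1 upwards and 1 downwards of 84, transcription factors 1 and 2 of 96, inhibitors 2 and 4 of 76, other interferon gamma targets 4 and 1 of 167, and type I interferon-stimulated genes 1 and 6 of 128. Partners of the GTPases in LC3 conjugation gave 1 downwards of 125 and those in the inflammasome 1 downwards of 30. For the *Xist* libraries, where 0.149% of all pairs were past it upwards and 0.0575% downwards, the same lists gave calls upwards only: 4 of 35 other GTPases, 13 of 96 transcription factors, 2 of 76 inhibitors, 19 of 167 other interferon gamma targets and 29 of 128 type I genes. In edgeR the calls were 0 of 9 for cytokines, 0 of 84 for receptors and kinases, 0 of 125 for LC3 partners and 0 of 30 for inflammasome partners, with an unadjusted p under 0.05 for 3, 2, 5 and 1 of them, and DESeq2 was not run on this contrast.

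*Ifng* was at 3.22 CPM or less in every library of the other 11 classes. In T and NK-like cells it was at 424, 640 and 555 CPM in the WT and 452, 749 and 663 CPM in the KO libraries, which overlap. T and NK-like cells were 3.30%, 2.96% and 4.94% of cells in the WT and 1.24%, 2.80% and 1.41% in the KO libraries, so that *Ifng* over all cells was 4.24, 7.24 and 8.28 CPM in the WT and 3.38, 9.50 and 2.65 CPM in the KO libraries. Among receptors, *Ifngr1* in LOH-like cells was at 5.34, 5.51 and 5.24 CPM in the WT and 10.7, 9.01 and 8.20 CPM in the KO libraries, an increase of 0.78 (adjusted p = 0.03402, edgeR). In podocyte-like cells, a class outside the rule for naming genes and described after its values were seen, it went from 213, 201 and 173 CPM in the WT to 105, 96.1 and 99.9 CPM in the KO libraries, a difference of -0.98 (adjusted p = 0.001271, edgeR). Neither comparison overlapped, and the GTPase medians in these classes had the opposite signs to *Ifngr1*.

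Several other interferon genes were lower in the KO libraries in LOH-like cells. *Ifit3*, a type I interferon-stimulated gene, was at 28.4, 62.2 and 47.1 CPM in the WT and 18.9, 13.8 and 17.5 CPM in the KO libraries, a difference of -1.47 (adjusted p = 0.004214, edgeR). *Irf7* (-3.15), the factor that amplifies type I interferon, and *Ifi44* (-4.46), *Cmpk2* (-1.23), *Ifit3b* (-1.6) and *Bst2* (-2.10) also fell. *Pycard*, the adaptor of the inflammasome, was at 28.0, 30.5 and 25.7 CPM in the WT and 11.7, 13.1 and 12.5 CPM in the KO libraries, a difference of -1.17 (adjusted p = 0.0005075, edgeR). The inhibitors were mixed, *Socs3* rising by 0.68 and *Irf2bp2* falling by 0.43. In endothelial-like cells *Ifi27l2a* was the only pathway gene past the threshold (0.205% of all genes were), at 236, 763 and 238 CPM in the WT and 24.8, 46.4 and 32.7 CPM in the KO libraries, a difference of -3.58 (adjusted p = 0.003966, edgeR). Of the type I genes tested there, 15 of 16 had an unadjusted p under 0.05 in edgeR, with a median difference of -1.60. That count was 10 of 11 in stromal and mesangial-like cells (-2.13), 9 of 13 in LOH-like cells (-1.43) and 0 of 11 in podocyte-like cells (-0.25). Over the 12 classes it was 58 of 128. Over all cells *Ifnlr1* (1.22) and *Casp4* (1.03) rose, and *Irf2bp2* (-0.51) and *Pycard* (-0.66) fell. These all-cell differences also carry the shift in cell composition between the groups, whose part was not tested.

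In the *Xist* contrast, endothelial-like cells had *Gbp4* (1.64), *Gm4951* (1.57) and *Gbp5* (1.27) higher among the other GTPases, with *Irf7* (1.67) and the antigen-processing genes *Tap1* (1.11), *Psmb9* (0.97) and *Psmb8* (0.92). *Serping1* (1.34), *Ifit3* (2.12), *Xaf1* (1.02) and *Oasl2* (1.42) were higher as well. WT2 and KO1 were not alike in all of them: *Gbp4* was at 122 CPM in WT2 and 143 CPM in KO1, whereas *Ifit3* was at 788 CPM in WT2 and 58.4 CPM in KO1, with WT1 and WT3 at 113 and 95.8 CPM and KO2 and KO3 at 37.1 and 23.4 CPM. In LOH-like cells *B2m* (1.28), *Irf7* (2.07), *Usp18* (2.74), *Bst2* (1.67), *Xaf1* (2.66), *Oasl2* (2.26) and *Ifi44* (2.10) were higher. WT2 and KO1 were not alike in LOH-like cells either. The type I list differed from its class mean by 1.03 in WT2 and -0.26 in KO1 on the log2 scale. The values were 0.04 and 0.20 in WT1 and WT3 and -0.57 and -0.44 in KO2 and KO3. No GTPase member passed there (0.176% of all genes did), and 4 of 6 had an unadjusted p under 0.05.

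Type I genes and GTPases thus ranked the libraries differently. Each gene was set against its own class mean as log2(CPM + 1), and the mean over a list was taken in each class and library. For the 9 GTPases the median over 12 classes was 1.5 in KO1 and 0.57 in WT2 and below 0 in the other 4 libraries, KO1 being the highest library in 7 classes and WT2 in 5. For 19 other interferon gamma targets the medians were 0.38 in KO1 and 0.33 in WT2, each the highest in 6 classes. For the 19 type I interferon-stimulated genes found in the files, WT2 was the highest in 12 of 12 classes with a median of 1.08, and KO1 was at -0.09. The difference between the lists was not tested.

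**Figure D5:**
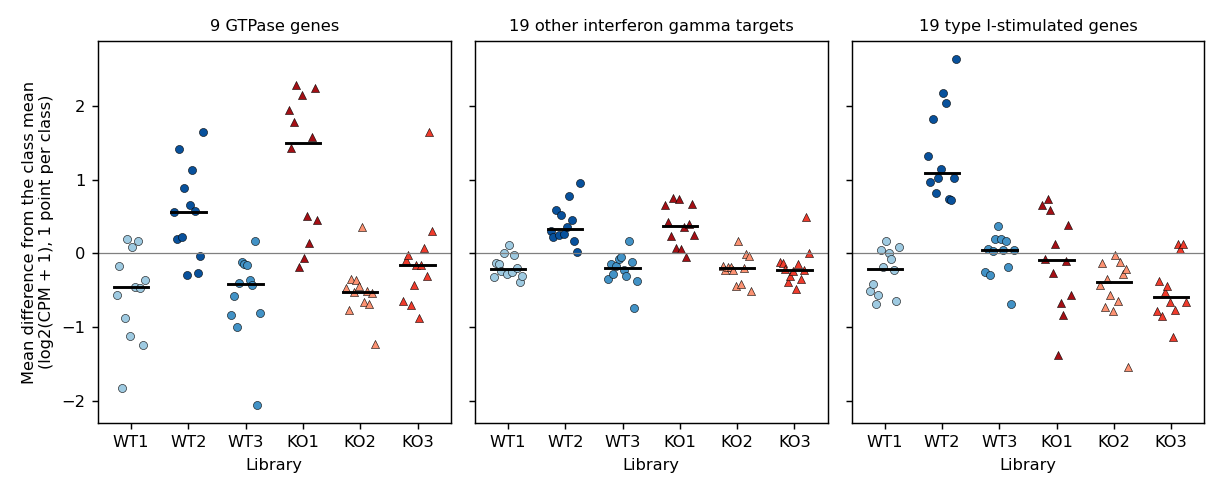
Mean difference from the class mean, log2(CPM + 1), of 3 gene lists by library, with 1 point per class (12 classes) and the median as a bar. WT2 and KO1 stand above the other libraries for the GTPases (medians 0.57 and 1.5), whereas for the type I genes WT2 does so (1.08) and KO1 does not (-0.09).

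The genes whose pattern was most like that of the GTPases belonged to antigen presentation. Over 72 sums (12 classes in 6 libraries), log2(CPM + 1) less the class mean was correlated with the mean of the 9 members for 6260 genes. The closest were *Tap1* (Pearson's r = 0.923), which carries peptides into the endoplasmic reticulum, *B2m* (0.878), *H2-D1* (0.851), *Psmb8* (0.841), *H2-Q4* (0.836), *H2-K1* (0.823), *Psmb9* (0.821) and *Ifi47* (0.820), the last an immunity-related GTPase itself. Sums of 1 library share its depth and preparation, so r describes these libraries and has no p. Among the members, treated the same way, r ran from 0.442 for *Tgtp2* with *Gbp3* to 0.840 for *Tgtp1* with *Tgtp2*, the pair that shares most of its sequence.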

How the data were processed

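BD Rhapsody whole-transcriptome libraries of renal cortex from 3 WT and 3 *Prdm16* KO mice were used, with 1 mouse per library. The deposited values are counts of UMIs per gene and cell, which the authors made with the BD Rhapsody pipeline on mm10 (GENCODE annotation). The authors' Scanpy was version 1.8. The members, gene lists and classes compared were chosen with earlier results of these data known. Cells with 500 to 60000 UMIs, 200 to 8000 genes and at most 50% mitochondrial counts were kept. Scrublet doublets were removed, 0.52% and 0.6% of cells by its automatic threshold in KO1 and WT3 and the top 6% elsewhere. Cells were clustered with Scanpy 1.11.5 (2000 variable genes without the interferon lists, 30 components, 15 neighbours, resolution 1.0), and 25 clusters were named from 116 markers, 1 staying unnamed. Classes with fewer than 20 cells in any library (proximal tubule-like, B-like and neutrophil-like) were not tested.

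Counts were summed per class and library and tested with edgeR 4.0.16 (quasi-likelihood, TMM, filterByExpr with a minimum count of 10, no covariates), adjusted over all genes of a class by the Benjamini-Hochberg method. A fit with a term for the libraries with *Xist*, chosen after seeing the data for the *Xist* contrast itself, and DESeq2 1.42.0 were run beside it, and the fits were tested on simulated counts. CPM has no pseudocount unless given. Where no UMI was seen, 3 counts are taken as the limit. Each library was 1 mouse, so p-values reflect the spread between mice. Named pathway genes are those past the threshold in LOH-like, endothelial-like or all cells. Promoters are the RefSeq windows of GRCm38.p6. The values of 1 pathway gene are not reported here.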

Additional observations from a re-analysis of the deposited data

Results flagged for a closer look

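For 2 genes the KO minus WT difference itself differed between endothelial-like and LOH-like cells. *Iigp1* differed by 2.57 on the log2 scale (SE 0.52, endothelial-like minus LOH-like), and *Igtp* by 1.20 (SE 0.25). The test was an interaction term in edgeR with Benjamini-Hochberg adjustment, in which 0.842% of all genes were past the threshold. As KO and WT values chose the genes, both are given as a description. *Iigp1* in LOH-like cells rests on 0.328 to 7.62 CPM and on no UMI in KO3. Without KO3 its value was 1.82 and without WT2 2.38, and that of *Igtp* was 1.04 without WT1 and 0.85 without KO1, none of them past the threshold. The other 7 members ranged from -1.06 (*Tgtp2*) to 1.70 (*Tgtp1*) and were not past it.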

How the results depend on the processing

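The 6 KO minus WT calls over 12 classes became 12 with a term for the *Xist* libraries, 2 with classes from marker scores, 2 in the 4 libraries without *Xist*, 42 without the filter on low counts and 3 without a mitochondrial limit, and the cause was not tested. Leaving out 1 library gave 1 to 10 calls (1 without WT1, 2 without WT3, 3 without WT2, 3 without KO1, 5 without KO3 and 10 without KO2). With the mouse number as a replicate block there were 7 calls. The numbers were not taken as pairing the mice, since same-numbered libraries deviated with correlations of 0.21, -0.07 and 0.19. DESeq2 gave 6 calls, DESeq2 size factors 6, a 30% mitochondrial limit 5 and equal cell numbers 7. The 17 calls for the *Xist* libraries became 14 to 27 with 1 library left out (27 without KO3), and 21 without each gene's highest cell, alternatives chosen after seeing the data. The 2 interaction calls became 1 to 2. No value changed sign. For single genes, 73 KO values stayed on the same side of the threshold and 37 lost their call, and for the *Xist* contrast 102 and 31 did. The mean share of endothelial-like cells was 38.0% thinned and 62.4% unthinned. The 30% limit left too few DLH-like and macula densa-like cells to run. Low levels limit *Gbp2* in LOH-like cells (16 to 63 UMIs per library), and few cells limit the DLH-like values, where 3 counts are 3.95 to 15.1 CPM.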
